A study of Mus musculus with 4 samples.

Results

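Cytoplasmic ribosomal protein genes, which encode the protein subunits of the ribosome, were examined for streptavidin ChIP-seq peaks meant to mark the transcription factor PLZF. The set held every RefSeq protein-coding gene of the mouse whose symbol is Rpl or Rps with a number and an optional letter a, l, x or y, together with Rplp0, Rplp1, Rplp2 and Rpsa. This gave 81 of 21887 nuclear protein-coding genes, 50 of the large and 31 of the small subunit. A gene was counted when the midpoint of a peak lay in its body or within 5 kb on either side. The rule takes in tissue-restricted copies such as Rpl3l, Rpl10l and Rpl39l. It leaves out Rps3a1, Fau and Rack1, which also encode ribosomal components, and none of these had a peak by the same count in either list. Of the related genes Rpl22l1, Rpl36al and Rpl7l1, also outside the rule, Rpl7l1 alone had peaks (PLZF-transgenic score 117.8, NKT score 81.7).

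The study compared PLZF sites in thymocytes of 2 kinds of transgenic mice on a C57BL/6 background, with 1 ChIP library each and 2 input libraries that were not analysed here. The library called PLZF-transgenic came from PLZF tg/BirA tg mice, which carry PLZF and BirA as transgenes; BirA is a bacterial ligase that attaches biotin, so that tagged protein can be held on streptavidin beads. The library called NKT came from mice that carried a Valpha14 transgene besides these, which encodes the alpha chain typical of the receptor of natural killer T cells. Both groups thus carried both the PLZF and the BirA transgene, and no pull-down from mice without them was among the samples. Thymocytes are the labelled cell type of both libraries, with no mention of sorting, and the sources used here do not name the elements that drive the transgenes. Peak lists carry no expression, so markers of the cell type could not be checked. The lists held 5198 PLZF-transgenic and 4246 NKT peaks. Each peak carries a score set by the authors, which describes strength within a list only, and the read depth is unknown. With no replicate, no difference between the libraries was tested. Intervals are exact (Clopper-Pearson) 95% intervals and cover counting error only, and a peak need not be a PLZF site.

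The ribosome translates messenger RNA, with decoding on the small subunit and peptide bond formation on the large one. Its protein genes are short, are transcribed at high rates in nearly all cells and are kept in balance with one another. Many start within a run of pyrimidines, the terminal oligopyrimidine tract that ties translation of their own messages to growth signals, and many of their introns hold small nucleolar RNA genes. PLZF, encoded by Zbtb16, is a zinc finger factor known for directing the innate-like program of natural killer T cells.

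To show the DNA under peaks at gene starts, the last 150 bases before the annotated start and the first 20 transcribed bases are printed for 5 genes with a start peak in both lists, taken in order of PLZF-transgenic score, 5′ to 3′ on the transcribed strand (RefSeq, GRCm38.p6, the assembly of mm10). Capitals mark the words CCGGAA (core of ETS factor sites, on either strand, printed TTCCGG on the reverse), CTTTC within 10 bases of the start, and TATAAG on the transcribed strand. The genes are the small subunit genes Rps26 (chr10:128626487-128626656, minus strand), Rps18 (chr17:33955646-33955815, minus) and Rps9 (chr7:3703891-3704060, plus), and the large subunit genes Rpl10 (chrX:74270666-74270835, plus) and Rpl27 (chr11:101442095-101442264, plus).
Rps26: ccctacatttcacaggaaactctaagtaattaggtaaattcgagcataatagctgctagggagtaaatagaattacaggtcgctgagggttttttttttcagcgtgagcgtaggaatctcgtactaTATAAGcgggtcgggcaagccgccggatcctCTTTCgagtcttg
Rpl10: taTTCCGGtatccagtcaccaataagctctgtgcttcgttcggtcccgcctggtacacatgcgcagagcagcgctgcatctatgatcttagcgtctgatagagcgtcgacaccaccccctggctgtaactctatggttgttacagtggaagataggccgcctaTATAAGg
Rpl27: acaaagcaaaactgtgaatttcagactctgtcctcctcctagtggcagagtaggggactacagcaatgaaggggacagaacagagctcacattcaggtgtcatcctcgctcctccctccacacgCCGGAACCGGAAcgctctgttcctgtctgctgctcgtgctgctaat
Rps18: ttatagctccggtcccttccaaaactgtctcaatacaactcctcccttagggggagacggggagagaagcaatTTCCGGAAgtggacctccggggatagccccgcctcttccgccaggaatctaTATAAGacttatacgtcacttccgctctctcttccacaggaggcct
Rps9: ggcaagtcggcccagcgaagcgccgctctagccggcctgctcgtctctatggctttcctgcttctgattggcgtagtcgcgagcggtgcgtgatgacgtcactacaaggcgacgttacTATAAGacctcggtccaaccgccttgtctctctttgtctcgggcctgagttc
All 170 bases lay under the PLZF-transgenic peak in each of the 5. The narrower NKT peak covered all 170 at Rps26 and Rpl27, but 98 at Rps9, 97 at Rps18 and 46 at Rpl10, where it reached upstream of the start only. Rpl27 held CCGGAA at 26 and again at 20 bases before the start, and Rps18 held it on opposite strands at 77 and 75 bases before it. Rps9 held none of the words searched except TATAAG.

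Peaks lay at ribosomal protein genes more often than at protein-coding genes at large. In the PLZF-transgenic list, 27 of 81 genes had a peak, 33.3% (23.2 to 44.7%), where 13.1% of all protein-coding genes had one. In the NKT list it was 22 of 81, 27.2% (17.9 to 38.2%), against 10.8%. Both lists had a peak at 15 genes (18.5%, against 7.59%). The PLZF-transgenic list alone had one at 12 (14.8%), the NKT list alone at 7 (8.64%), and 47 genes (58.0%) had none. Over all 21887 genes, 2874 had a PLZF-transgenic peak, 2372 an NKT peak and 1661 both. These counts fix the shares of all genes listed in a single library, in either or in none, so the excess holds there too. The ratio of the ribosomal share to that of all genes was 2.54 (PLZF-transgenic) and 2.51 (NKT). Ribosomal protein genes are short, with a median of 3.17 kb against 17.2 kb, so their windows are small. Among the 8797 protein-coding genes no longer than the longest of them (Rps15a, 11.8 kb), 7.26% had a PLZF-transgenic peak, 5.87% an NKT peak and 3.76% both, and the ratios of shares were 4.59 and 4.63. With gene bodies alone, 7 and 6 ribosomal protein genes had a peak midpoint, 8.64% and 7.41%, beside 8.37% and 7.18% of all genes. The bodies compared differ in length as given above. No share over genes of the same length range was taken for bodies, so an excess there cannot be judged. Genes were not matched on expression, and whether highly transcribed genes collect pull-down signal of their own was not tested.

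The subunits had peaks at nearly the same share of genes when both lists were joined, 21 of 50 for the large and 13 of 31 for the small subunit (42.0% and 41.9%). The share of all genes with a peak in either list is fixed by the counts given above (2874 PLZF-transgenic, 2372 NKT and 1661 both, of 21887). By list, the large subunit had 15 of 50 in each, and the small subunit had 12 of 31 PLZF-transgenic and 7 of 31 NKT genes. Of all protein-coding genes, 13.1% had a PLZF-transgenic and 10.8% an NKT peak.

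**Figure D1:**
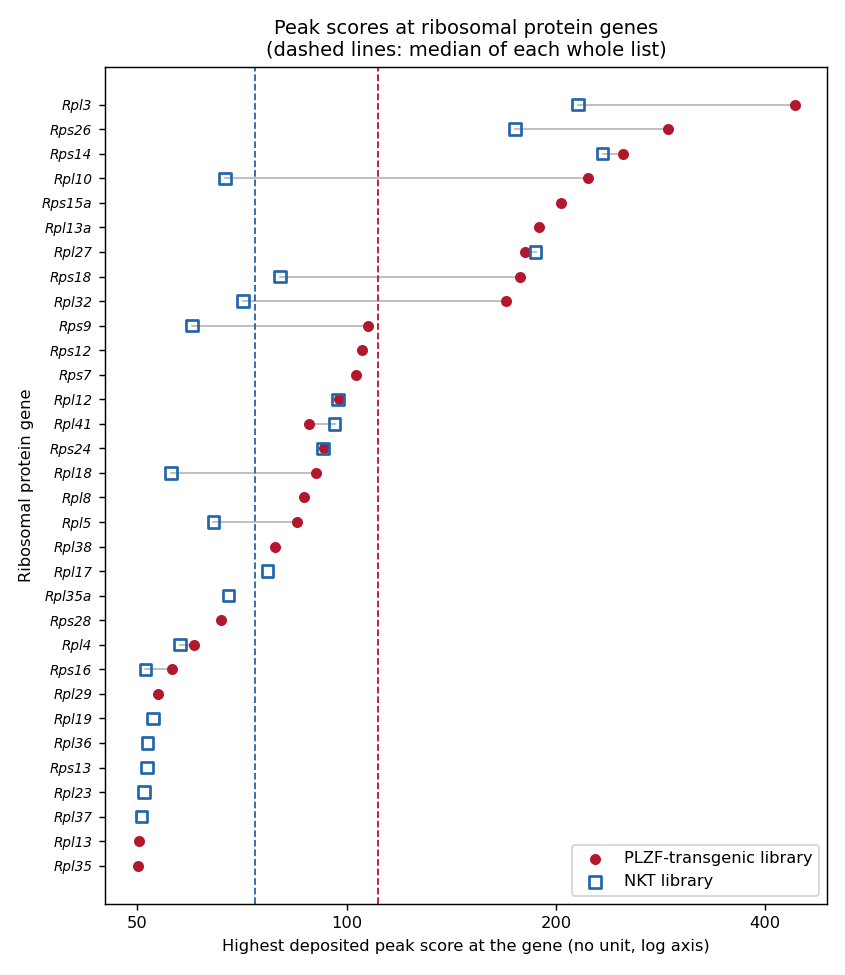
Highest deposited peak score at 32 of the 34 ribosomal protein genes with a peak (log axis, no unit), PLZF-transgenic library as filled circles and NKT library as open squares, with dashed lines at the median score of each whole list (110.8 and 73.8). Rpl3, Rps26 and Rps14 have the highest scores in the PLZF-transgenic list and Rps14, Rpl3 and Rpl27 in the NKT list, and most genes lie left of the median of their list. The scales of the lists are not comparable.

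Among large subunit genes, Rpl3, whose product lies near the peptidyl transferase centre, had the highest score. Its peak spanned chr15:80083147-80083851 in the PLZF-transgenic list (score 440.9) and chr15:80083227-80083913 in the NKT list (215.3), across a boundary of the gene. It was the only PLZF-transgenic peak at these genes in the top 10% of its list by score. Rpl10, whose product joins the large subunit late in its maturation, had scores of 222.3 (PLZF-transgenic) and 66.9 (NKT), with midpoints 45 and 201 bases before the start. Rpl27 had 180.8 and 187.0, with both midpoints inside the gene, 93 and 22 bases past the start. These genes had a peak at the same place in both lists. The Rpl3 peak stood similarly within each list, at percentile 93.3 of the PLZF-transgenic and 89.2 of the NKT scores. The others stood differently, the Rpl10 peak at 77.7 and 42.8 and the Rpl27 peak at 70.7 and 86.5.

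Rpl32 had scores of 169.3 and 70.9 at a gene boundary, and Rpl5 had 84.9 and 64.3 with midpoints 23 and 27 bases before the start. Rpl5 protein binds 5S ribosomal RNA and, when free, the p53 regulator Mdm2. Rpl12, a protein at the base of the ribosomal stalk, differed in place: its peaks (97.4 and 97.2) lay 1.30 and 1.28 kb inside from the start. A second NKT peak of score 53.5 lay beyond the gene, 3.54 kb from the start. Rpl41, which encodes the smallest of the ribosomal proteins, had 88.2 and 96.1, and Rpl18 had 90.4 and 55.9. Rpl4, whose product lines the peptide exit tunnel, had a peak in both lists at different places. The PLZF-transgenic one (60.4) lay 212 bases past the start, and the NKT one (57.6) 6.18 kb past it, beyond the gene and within Snapc5.

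Among small subunit genes, Rps26, whose product contacts messenger RNA upstream of the start codon, had scores of 289.5 (chr10:128626399-128626996) and 174.6 (chr10:128626374-128626893). Rps14, a protein of the platform of the small subunit, had 2 peaks in each list. The stronger one lay inside the gene, with scores of 249.9 (chr18:60775468-60776124) and 233.4 (chr18:60775718-60776109), and the weaker one at the gene boundary, with 68.6 and 64.9. The Rps14 peak inside the gene was the only NKT peak at these genes in the top 10% of its list by score. Rps18, in the head of the small subunit, had 177.3 and 80.2, and Rps9 had 107.5 and 59.9. Rps24, needed for processing of the ribosomal RNA precursor, had 92.9 and 92.5, 3.56 and 3.52 kb upstream, where Polr3a, a subunit gene of RNA polymerase III, was the nearer gene. Rps16 had 56.0 and 51.3, 2655 and 2722 bases beyond the end of the gene.

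The 12 genes listed in the PLZF-transgenic library alone included Rps7 (103.1) and Rps12 (105.3), with midpoints 32 and 189 bases before the start. Rpl38 (78.9) was another, with its midpoint inside the gene span, 119 bases before an internal start. Rpl38 is known for its part in the translation of Hox messages. Rps15a had 2 peaks, 450 bases and 3.83 kb before the start (51.7 and 203.2), the stronger within the neighbour Arl6ip1. Rpl29 (53.5) had a low-scoring peak with its midpoint 366 bases from a boundary. Rpl13 (50.3), Rpl35 (50.1), Rpl8 (86.9) and Rps28 (66.0) had peaks with midpoints 743 to 4171 bases outside the gene. For Rpl35, Rpl8 and Rps28 the nearer genes were Arpc5l, Commd5 and Ndufa7.

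Rpl13a on chromosome 7 had 2 PLZF-transgenic peaks. One (87.1) lay 308 bases before the start. The other (188.8, chr7:45121359-45121913), 3.93 kb outside the gene, covered the microRNA gene Mir150, known for its role in lymphocyte development. Of its mature products, the table used here gives miR-150-3p (chr7:45121798-45121819, plus strand), all 22 bases of which lay under the peak. It is shown with its seed in capitals, to mark what this peak lies on.
mmu-miR-150-3p: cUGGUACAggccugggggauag
The NKT list had no peak within 5 kb of Rpl13a.

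For the 7 genes listed in the NKT library alone, scores are given in order. Rpl17 (77.0), Rpl35a (67.6), Rpl19 (52.7), Rpl36 (51.7), Rps13 (51.6), Rpl23 (51.1) and Rpl37 (50.7) ranged from 50.7 to 77.0. The lowest score of the whole NKT list was 50.02 and its median 73.8, so Rpl17 stood above the median, Rpl35a below it and the other 5 close to the lowest score. Of these, Rpl23 (another protein that binds Mdm2) and Rpl35a had midpoints 21 and 259 bases before the start. Rpl37 had its midpoint 855 bases past it. The Rpl36 peak lay inside the gene, the Rps13 peak 3334 bases outside it, and the Rpl17 and Rpl19 peaks within the neighbours BC031181 and Cacnb1. Whether the populations differ at these genes was not tested.

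Close to gene starts the excess was larger. Starts with a strand were known for 61 of the 81 genes. In the PLZF-transgenic list, 13 of these 61 (21.3%) had a midpoint within 1 kb of the start, beside 4.44% of all protein-coding genes with a known start and 3.54% of those no longer than Rps15a. In the NKT list it was 10 of 61 (16.4%), beside 3.48% and 2.87%. These 13 and 10 midpoints were mostly upstream of the nearest annotated start, 11 of 13 and 8 of 10. All but the NKT midpoint at Rpl37 were within 500 bases. The Rpl38 midpoint and both Rpl18 midpoints count as upstream but lay inside the gene span, before an internal start. Among all protein-coding genes, 68.4% and 65.5% of the midpoints within 1 kb were upstream. Of all midpoints at the 61 ribosomal protein genes, 59.1% and 55.6% were within 1 kb of the start, beside 42.1% and 45.6% at genes of the same length range.

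**Figure D2:**
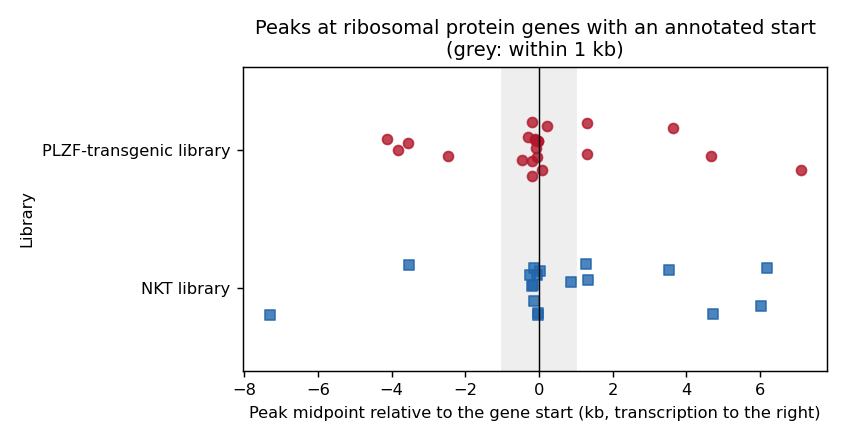
Peak midpoints relative to the nearest annotated start of the ribosomal protein gene (kb, transcription to the right), 22 in the PLZF-transgenic library (circles) and 18 in the NKT library (squares); vertical scatter within a library carries no value. The grey band marks 1 kb on either side and holds 13 and 10 of them.

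Several of these starts are shared with a neighbour, and the peak cannot then be assigned to the ribosomal protein gene. The Rps18 midpoints lay 17 and 27 bases from a start of Vps52, and the Rpl18 midpoints 13 and 8 bases from a start of Sphk2. The NKT midpoint at Rpl35a lay 8 bases from the start of Iqcg. Away from its own start, Rpl41 had midpoints 1.29 and 1.32 kb past it, beyond the gene and 129 and 105 bases before the start of Zc3h10. When a peak was kept only where the ribosomal protein gene was its nearest protein-coding gene, 20 PLZF-transgenic and 15 NKT genes remained in the count (24.7% and 18.5%, beside 11.0% and 9.12% of all genes). Near the 5 kb limit, midpoints counted were 4.13 kb from Rpl35 (50.1) and 4.17 kb from Rpl8 (86.9), both PLZF-transgenic. The nearest not counted were 5.05 kb from Rpl11 (NKT, 59.8) and 5.39 kb from Rpl3 (PLZF-transgenic, 57.9).

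The peaks at ribosomal protein genes were of low to middling score. The 29 PLZF-transgenic peaks had a median score of 90.4 (50.1 to 440.9), beside 110.8 for the whole list, and 31.0% were above that median. The 24 NKT peaks had a median of 65.9 (50.7 to 233.4), beside 73.8, and 37.5% were above it. Peaks at all protein-coding genes no longer than Rps15a also scored below the whole lists, with medians of 99.65 (PLZF-transgenic) and 70.52 (NKT). Of those peaks, 44.2% and 45.3% were above the list median. With the upper 50% of each list by score, 10 and 9 genes kept a peak, 12.3% and 11.1% beside 7.03% and 5.94% of all genes, a ratio of 1.76 and 1.87. Of the 29 PLZF-transgenic peaks 15 overlapped an NKT peak, 51.7% (32.5 to 70.6%), and of the 24 NKT peaks 15 overlapped a PLZF-transgenic one, 62.5% (40.6 to 81.2%). These shares were near those of the whole lists, 45.7% and 60.7%. The 15 overlapping pairs lay at 14 genes, with midpoints 4 to 270 bases apart (median 48.0).

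The promoters, taken as the 250 bases before to 50 after the start, differed from other promoters in the words they held. CCGGAA stood on either strand in 30 of 61 promoters of ribosomal protein genes (49.2%), beside 19.1% of all 17492 protein-coding promoters. CTTTC on the transcribed strand, beginning within 10 bases of the start, stood in 14 of 61 (23.0%), beside 2.85%. Genes with and without a peak held both words at similar shares. CCGGAA was in 11 of 25 promoters of genes with a peak in either list (44.0%) and 19 of 36 without (52.8%), and CTTTC in 6 of 25 (24.0%) and 8 of 36 (22.2%). The SP1 box GGGCGG stood in 57.4%, beside 46.3%. The YY1 word AAGATGGC was in 3 of 25 and 1 of 36, beside 3.22% of all promoters, at Rpl13a, Rpl35a and Rps15a among those with a peak. TATAAA, the E-box CACGTG and the RUNX core TGTGGT, all read on both strands, were in 9.84%, 8.20% and 8.20%, beside 13.3%, 7.90% and 15.1%. With a peak within 1 kb of the start in either list, CCGGAA was in 8 of 16 promoters of ribosomal protein genes. Over all protein-coding genes with such a peak, CCGGAA was in 38.0% of promoters. A matching word is a description of the sequence and not a site. Median GC content was 56.0% with and 58.7% without a peak, and 56.3% over all promoters.

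**Figure D3:**
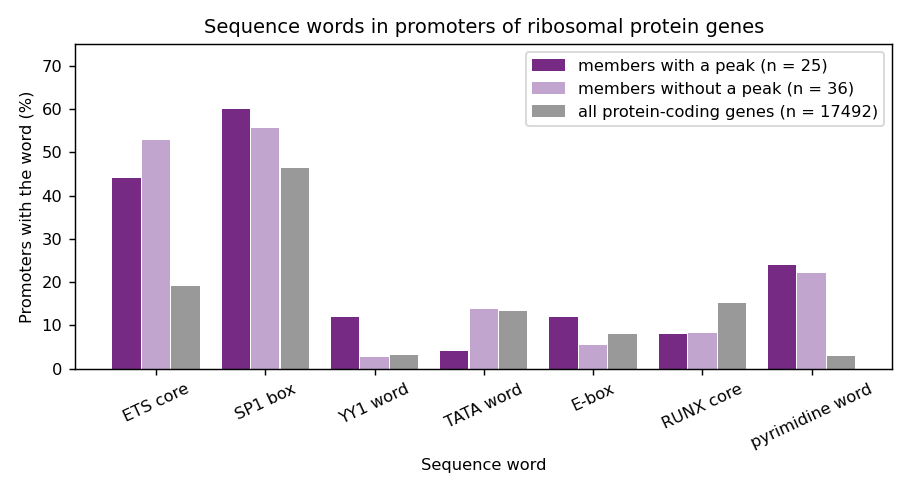
Share of promoters (%, 300 bases) that hold each sequence word, for ribosomal protein genes with a peak in either list (25 promoters), those without (36) and all protein-coding genes (17492). The ETS core CCGGAA and the pyrimidine word CTTTC are more frequent in both ribosomal groups than over all genes.

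Other genes of protein synthesis and of abundant complexes had lower shares, some near the background and some well above it. The complex I share in the PLZF-transgenic list and the proteasome share in the NKT list lay nearer to the ribosomal share than to that of all genes. Of 63 translation factor genes, 8 had a PLZF-transgenic and 9 an NKT peak (12.7% and 14.3%), with Eif4e3 highest (681.2 and 134.4). Of 78 mitochondrial ribosomal protein genes, 8 and 12 had one (10.3% and 15.4%), with Mrpl58 highest (2112 and 1268). Of 80 ribosome biogenesis genes, 16 and 14 had one (20.0% and 17.5%), with Lsg1, the gene of a GTPase of late large subunit maturation, highest (222.4 and 211.4). Proteasome subunit genes had 6 and 8 of 40 (15.0% and 20.0%), with Psma6 highest (542.2 and 77.5), and complex I genes of the respiratory chain 10 and 7 of 41 (24.4% and 17.1%), with Ndufs7 highest (198.7 and 154.7). The cytoplasmic ribosomal share was the highest of these 6 lists in both libraries, but its interval overlapped that of each other list in the NKT library. In the PLZF-transgenic library it overlapped that of each list except the mitochondrial ribosomal proteins (4.53 to 19.2%). Median gene length in these other lists was 7.69 to 15.0 kb.

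**Figure D4:**
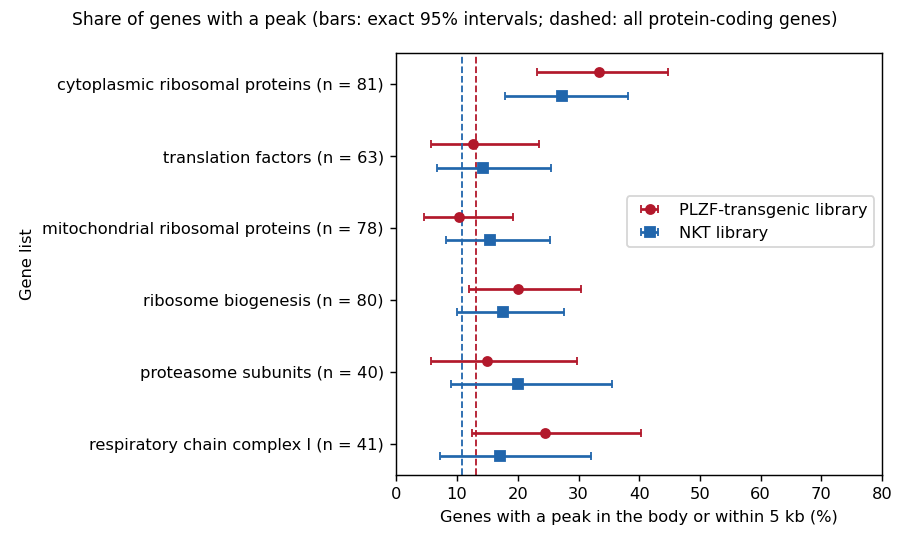
Share of genes with a peak in the body or within 5 kb (%), by gene list and library, with exact 95% intervals that cover counting error only; dashed lines mark all protein-coding genes (13.1% and 10.8%). Cytoplasmic ribosomal protein genes lie at 33.3% and 27.2%, the other lists at 10.3 to 24.4%.

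Ribosomal protein genes have many pseudogenes, copies that mostly lack the promoter of the parent gene. Of 315 annotated pseudogenes named after 62 of the 81 genes, 10 had a PLZF-transgenic peak within 5 kb (3.17%, 1.53 to 5.76%) and 8 an NKT peak (2.54%, 1.10 to 4.94%). Over all pseudogenes these shares were 1.87% and 1.55%. The highest scores were at Rpl9-ps6 (774.8 and 477.1), 515 and 619 bases away. Small nucleolar RNA genes lay inside 29 of the 81 genes. Of these hosts 11 had a PLZF-transgenic and 11 an NKT peak (37.9% each), beside 16 and 11 of the 52 other genes (30.8% and 21.2%). Over all protein-coding genes the shares were 13.1% and 10.8%. Whether hosts and other ribosomal protein genes differ was not tested.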

How the data were processed

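Each streptavidin ChIP-seq library was deposited as 1 headerless peak list of 5 columns. The last column was read as the authors' peak score, whose scale is not stated. Peak names in the files begin with MACS. Bowtie, Picard and HOMER were used with build mm10, per the submitters' processing notes. The sources used here do not give versions, pooling or whether the inputs served as control. Depth per library is unknown.

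Starts were raised by 1 base. Gene spans came from a RefSeq table of GRCm38.p6, and starts with strand from a RefSeq promoter table, which matched 61 of the 81 genes and 17492 of 21887 protein-coding genes. The first entry of a gene was used for words, and the start nearest to the peak for distances. Overlap meant at least 1 bp. The code of the window count was checked on simulated peaks against the same rule, which does not test the rule itself. Python 3.11.15, pandas 2.3.3 and scipy 1.17.1 were used. Groups were single libraries, so no test was run and no p-value is given.

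The rule named every gene with a peak; a few genes are not reported here by name. They stay in the counts. Promoters were printed for the genes with a peak in both lists and the highest PLZF-transgenic scores, chromosome 18 and genes without a promoter entry left out; Rpl12, next in that order, was not printed since no peak reached its promoter. Of each other list, the gene with the highest PLZF-transgenic score was named. The members and lists were chosen with earlier results of these data known. Alternatives were other windows, overlap rules, score limits, gene sets and backgrounds.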

Additional observations from a re-analysis of the deposited data

How the results depend on the processing

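The PLZF-transgenic count of ribosomal protein genes with a peak (27) was 22 with 1 kb on either side, 29 with 10 kb and 27 with any overlap; the NKT count (22) was 16, 25 and 23. Both moved by over 1.5 times under 3 settings. With gene bodies only, they were 7 and 6, with 4 genes in both lists, and 7 and 6 peaks. With the top 50% of each list by score, they were 10 and 9, with 5 in both, and 9 and 9 peaks. With overlapping peaks only, they were 14 and 14, and 15 and 15 peaks. These settings keep less sequence or fewer peaks, also over all genes. The ratio to the share of all genes was 2.55 in both libraries with overlapping peaks only. It was 1.76 and 1.87 with the top 50%, and 1.03 in both with gene bodies only, without a length limit. With 1 kb, 10 kb and any overlap it was 2.52, 2.30 and 2.52 (PLZF-transgenic) and 2.21, 2.38 and 2.61 (NKT). Against genes no longer than the longest ribosomal protein gene, the ratio of shares went from 2.54 to 4.59 (PLZF-transgenic) and from 2.51 to 4.63 (NKT). Adding 6 ribosomal protein genes outside the symbol rule gave 28 and 23. Giving each peak in the windows of 2 members to the nearer one, chosen after seeing the data, left 27 and 22. Reciprocal 50% overlap lowered the shares of overlapping peaks to 37.9% and 45.8%. No paired analysis was possible because each group had 1 library. No read counts were used, so a missing peak cannot be told from too little depth.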

Other observations

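The printed promoters of Rps26, Rps18, Rps9 and Rpl10 all held TATAAG, a word that differs from the TATA word searched in its last base. It was counted only after these sequences had been seen, so the count is a description. On either strand of the 300 bases, TATAAG stood in 7 of 25 promoters of ribosomal protein genes with a peak in either list (28.0%) and in 2 of 36 without (5.56%), beside 6.65% of all protein-coding promoters. The 7 genes were Rpl10, Rpl38, Rps9, Rps15a, Rps16, Rps18 and Rps26, and the other 2 were Rpl6 and Rps27. The 25 include genes whose peak is not at the promoter, such as Rps16. With a peak within 1 kb of the start in either list, TATAAG stood in 6 of 16 promoters of ribosomal protein genes (37.5%). Over all protein-coding genes with such a peak it stood in 5.60%. In Rps26, Rps18 and Rps9 it began 24, 26 and 32 bases before the annotated start. On the transcribed strand within 50 bases before the start it stood in 3 of 25 promoters with a peak, which are these same genes, and in 1 of 36 without, beside 1.64% of all. In Rpl10 it began at base 14 of the transcript, past the annotated start. The word was taken from Rps26, Rps18, Rps9 and Rpl10, and all of these are in both the 7 and the 6. Of the 6, only Rpl38 and Rps15a were not printed, and of the 7 also Rps16. These shares are thus no independent support for the word.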
